A study of Mus musculus with 4 samples.

Results

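The genes described here are 33 transcription factors and cofactors that build the heart in the embryo and set the identity of its chambers and conduction tissue afterwards. They were chosen by name, and all 33 were found among the 36661 gene symbols of the authors' deposited table. Where a symbol had more than 1 row, the row with the highest mean of the control and mutant values was taken, which concerned Tead1 alone. Ventricles of mice at postnatal day 14 were sequenced for RNA after the atria had been cut away. The control group held 2 wild type mice and the mutant group 2 Hnrnpu mutant mice, each group with 1 male and 1 female, all on a mixed C57BL/6 and 129 S4 background. The mutants came from crossing mice with a conditional Hnrnpu allele to mice with the Ckmm-Cre transgene, whose muscle creatine kinase promoter is active in striated muscle, so other cells of the ventricle keep the gene. Whether the wild type mice carried the conditional allele or the transgene is not stated in the labels.

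Heart development runs on a small set of DNA-binding proteins that act together. GATA, NKX2-5, T-box, HAND and MEF2 proteins bind side by side at enhancers of muscle genes, and Iroquois factors divide genes between atrium, ventricle and conduction system. Many of these factors stay on in the heart after birth, when cardiomyocytes stop dividing and switch to adult forms of their contractile proteins and channels. The product of the targeted gene, hnRNP U, is an RNA-binding scaffold protein of the nucleus with roles in splicing and in the folding of chromatin. Splicing of these factors, several of which are known to have tissue-specific exons, was not measured in a table with 1 value per gene.

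Levels are given in RPKM, that is, reads per kilobase of transcript per 1000000 mapped reads, so that levels of different genes can be compared. The authors gave 1 RPKM value per group, and no value per animal was analysed here, so a level carries no SD or n. A gene was called when its adjusted p-value in the authors' deposited table was below 0.05. To show the precision of each log2 fold change, a 95% interval was computed from the error that the deposited p-value implies; it is an approximation and is not given for p-values of 0.9 or more. Hnrnpu itself (chromosome 1, 180253205 to 180267928, mm9) was listed at 32.7 RPKM in controls and 15.2 in mutants and was not called (p = 0.0613 and adjusted p = 0.438 in the authors' deposited table). The steps between low values of small RNA genes put the control libraries at about 29200000 and 24900000 reads and the mutant libraries at about 76400000 and 55700000, if the authors scaled by mapped reads. Nothing in the labels says which animals shared a litter.

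Among the cardiac regulators 1 was called, Hopx, which fell. That is 3.03% of the 33 members, all of which were tested, against 3.51% of the 24454 tested rows in either direction and 1.48% for lower rows. Of the members, 26 had a mean of at least 1 RPKM, and among all rows of that level 5.28% were called. An unadjusted p below 0.05 was found for 6 members (Hopx, Foxo3, Tbx20, Klf15, Mef2b and Tbx5), which is 18.2% against 12.6% of all tested rows, and for 19.2% of the members of at least 1 RPKM against 17.0% of rows of that level. A difference of at least 2-fold, with no test, was listed for 10 of all 33 members against 40.7% of tested rows, and for 6 of the 26 members of at least 1 RPKM (23.1%) against 19.9% of such rows. At 1 RPKM and above, the shares of members lay near the background. The median log2 fold change of the 26 members was -0.15 against 0.08 over the 11292 rows of at least 1 RPKM, with 10 listed higher and 16 lower. The median size of their differences was 0.55 on the log2 scale against 0.50 over those rows.

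**Figure D1:**
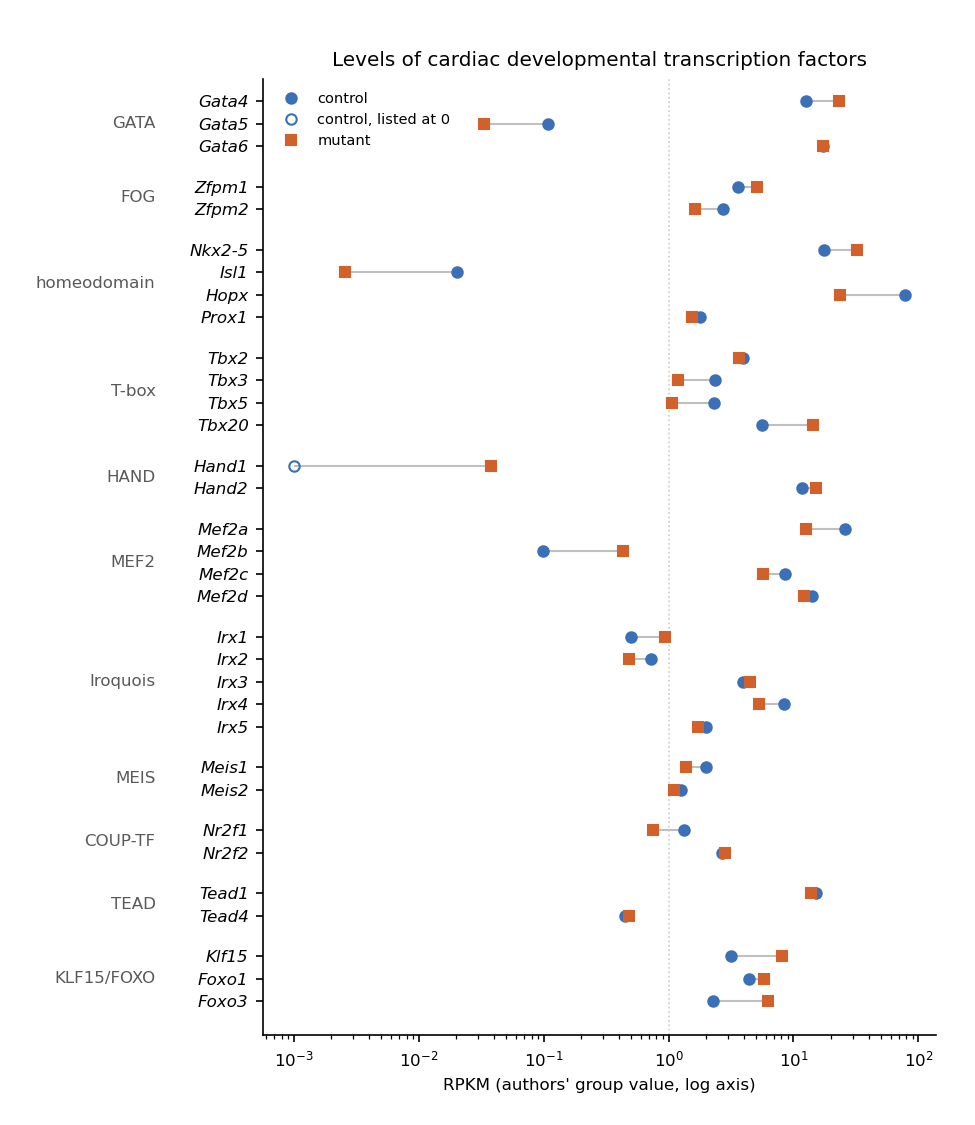
Level of each of the 33 members in control (blue circles) and mutant (orange squares) ventricles, as the authors' group values in RPKM on a log axis, ordered by family; grey lines join the values of a gene and the dotted line marks 1 RPKM. Hopx stood highest in control at 78.7 RPKM and Nkx2-5 highest in mutant at 32.4 RPKM, while Isl1, Gata5 and Hand1 lay below 0.2 RPKM, with Hand1 listed at 0 in control (open circle, drawn at the left edge).

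Precision sets how much can be read from the genes without a call. Over the 24 members of at least 1 RPKM with an implied error, its median was 0.52 on the log2 scale and its range was 0.41 to 0.60. At that median error a gene needed a change of about 3.11-fold to reach 0.00176, the largest p of a called row. Most members were therefore measured too coarsely for a 2-fold change to be called, and a missing call does not show that a factor kept its level.

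Hopx is an atypical homeodomain protein that does not bind DNA itself and restrains serum response factor through histone deacetylases. It is known as a target of NKX2-5 and is expressed in adult myocardium and the conduction system. Hopx (chromosome 5, 77516011 to 77544181, minus strand, mm9) was listed at 78.7 RPKM in controls and 23.5 in mutants. It was the most abundant member in control and the second in mutant. In the authors' deposited table the fold was 0.298, the log2 fold change -1.75, p = 0.00175 and adjusted p = 0.04998. Its implied 95% interval, in log2 units, was -2.85 to -0.65. The adjusted p lay just inside the threshold and was shared by 4 rows, and no called row had a higher one. When the adjustment was made over rows of at least 1 RPKM alone, the adjusted p of Hopx was 0.0332 and it was again the 1 called member, against 6.31% of those rows. The table also holds Gm15830, a processed transcript on the other strand within Hopx, at 15.3 RPKM in controls and 7.09 in mutants (p = 0.0321, adjusted p = 0.315 in the authors' deposited table). Where exons of Hopx and Gm15830 overlap, their reads cannot be told apart without strand. Only the spans of these rows were compared, not their exons, and the use of strand is not given in the sources used here.

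Hopx supplied 30.6% of the summed level of the 33 members in control and 10.5% in mutant. The sum went from 257.2 RPKM in control to 224.4 RPKM in mutant with Hopx, and from 178.5 to 200.9 RPKM without it. The sum was thus lower in mutant with Hopx and higher without it.

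The 250 bases before each start of Hopx are shown because Hopx was the called member, and those of Foxo3, Tbx20 and Klf15 because they had the next lowest p-values among the members. The sequences come from RefSeq on GRCm38.p6, a later build than the mm9 of the deposited table, and a promoter entry was found for 22 members with 27 starts. Capitals mark matches on either strand to letters that members and their partners are known to bind: AAGTG for NKX2-5 proteins, GGTGT for T-box proteins, AGATAA for GATA proteins, whose other form TGATAA was searched too, GTAAACA for FOXO proteins, GGAATG for TEAD proteins, CACGTG as the E-box, TGACG as the core of cyclic AMP response elements, the MEF2 consensus and the CArG box of serum response factor. No matches in these sequences overlapped each other. Hopx had 2 starts in RefSeq, and the table gives 1 value for both.
Hopx, first start, minus strand, chr5:77115124-77115373: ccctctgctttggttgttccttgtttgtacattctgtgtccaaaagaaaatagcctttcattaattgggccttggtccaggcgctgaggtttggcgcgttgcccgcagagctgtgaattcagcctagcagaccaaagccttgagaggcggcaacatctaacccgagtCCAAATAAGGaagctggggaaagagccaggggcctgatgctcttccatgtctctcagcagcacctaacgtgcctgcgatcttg
Hopx, second start, minus strand, chr5:77095268-77095517: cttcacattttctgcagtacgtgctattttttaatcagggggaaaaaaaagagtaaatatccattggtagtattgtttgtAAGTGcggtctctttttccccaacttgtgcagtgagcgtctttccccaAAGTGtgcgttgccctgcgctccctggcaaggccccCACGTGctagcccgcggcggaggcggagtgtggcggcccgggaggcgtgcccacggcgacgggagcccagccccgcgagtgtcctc
Foxo3, minus strand, chr10:42276696-42276945: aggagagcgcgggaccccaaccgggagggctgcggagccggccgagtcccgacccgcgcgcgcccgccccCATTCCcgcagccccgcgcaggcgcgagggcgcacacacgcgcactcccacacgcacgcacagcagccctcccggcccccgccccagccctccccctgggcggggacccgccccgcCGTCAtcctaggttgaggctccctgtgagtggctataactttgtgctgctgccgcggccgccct
Tbx20, minus strand, chr9:24774304-24774553: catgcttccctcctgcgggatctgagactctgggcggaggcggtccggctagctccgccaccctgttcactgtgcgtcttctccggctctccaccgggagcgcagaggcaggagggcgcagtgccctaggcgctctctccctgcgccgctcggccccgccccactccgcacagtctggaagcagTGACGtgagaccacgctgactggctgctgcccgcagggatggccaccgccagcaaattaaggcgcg
Klf15, plus strand, chr6:90462326-90462575: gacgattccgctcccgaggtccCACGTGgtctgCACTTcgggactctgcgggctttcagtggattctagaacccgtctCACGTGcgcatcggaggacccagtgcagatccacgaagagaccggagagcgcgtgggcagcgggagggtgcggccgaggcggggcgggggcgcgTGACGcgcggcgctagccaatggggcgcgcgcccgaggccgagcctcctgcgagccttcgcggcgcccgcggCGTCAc

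The first Hopx window held a CArG box from base -83 to base -74, counted back from the start, and 1.47% of the 32851 windows of the same length in the RefSeq table held one. Among the 27 windows of members, 1 held a CArG box, this one. The second Hopx window held AAGTG at bases -170 to -166 and -122 to -118 and the E-box at bases -86 to -81. AAGTG is short and stood in 40.7% of all windows and in 13 of the 27 windows of members. The Klf15 window held the E-box, the letters that clock proteins are known to bind, at 2 places, and 6.02% of all windows held it at least once. TGACG stood in the Foxo3, Tbx20 and Klf15 windows and in 8 of the 27 windows of members, against 17.8% of all windows. The MEF2 consensus was in 2.92% of all windows and in none of the 27. GGTGT was in 36.2% of all windows and 6 of the 27, AGATAA in 9.99% and 1, and the other GATA form in 7.94% and 2. GTAAACA stood in 3.17% of all windows and 1 of the 27, and GGAATG in 12.6% and 2. A match shows only that the letters are there.

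**Figure D2:**
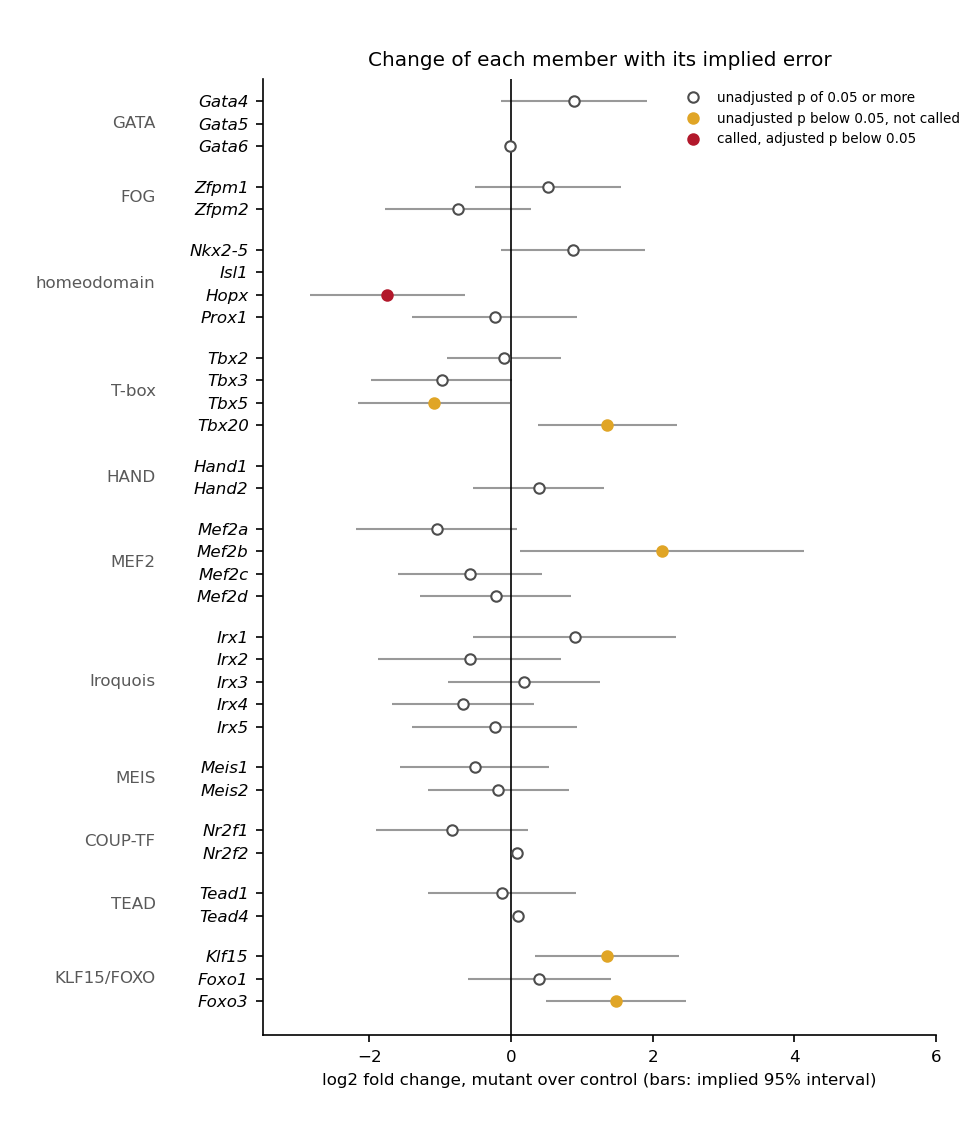
Log2 fold change of mutant over control for each member in the authors' deposited table, with the 95% interval implied by its p-value; genes are ordered by family, and Gata5, Isl1 and Hand1 are not drawn because of their low level. Hopx, in red, was the only called member, and Foxo3, Tbx20, Klf15, Mef2b and Tbx5, in yellow, had an unadjusted p below 0.05; points without a bar had a p of 0.9 or more.

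The other homeodomain factors of the cardiac lineage were listed in different directions. Nkx2-5 (chromosome 17, 26975607 to 26978558), the homeodomain factor at the head of the cardiac muscle program, was listed at 17.7 RPKM in controls and 32.4 in mutants. The authors' deposited table gives Nkx2-5 a log2 fold change of 0.88, with p = 0.0904 and adjusted p = 0.522, and the implied interval ran from -0.14 to 1.89. Its level was thus the third highest of the members in control and the highest in mutant, without a call. Prox1, which acts in sarcomere assembly and lymphatic endothelium, was listed at 1.80 and 1.53 RPKM (p = 0.696 in the authors' deposited table). Isl1, a factor of cardiac progenitors and the sinus node, was at 0.0203 RPKM in controls and 0.00259 in mutants, which by an estimate from exon lengths of a later annotation (GENCODE M21) amounts to about 4 reads and 1 read.

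GATA factors are zinc finger proteins that open and activate cardiac enhancers, and FOG proteins bind to them as cofactors. Gata4 (chromosome 14, 63817759 to 63890529) was listed at 12.6 RPKM in controls and 23.2 in mutants, and Gata6 at 17.3 and 17.2 RPKM. In the authors' deposited table the log2 fold change of Gata4 was 0.89 with p = 0.0923 and adjusted p = 0.526, with an implied interval from -0.15 to 1.92, and that of Gata6 was -0.01 with p = 0.994. Gata4 made up 42.0% of the summed GATA level in control and 57.4% in mutant, so the order of Gata4 and Gata6 was the other way round in mutant. Gata5, which acts in endocardium, was at 0.108 and 0.0336 RPKM, about 19 and 15 reads by the same estimate, with p = 0.126 in the authors' deposited table.

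The FOG cofactors were listed in opposite directions without a call. Zfpm1 was listed at 3.57 RPKM in controls and 5.12 in mutants (p = 0.319 in the authors' deposited table). Zfpm2, also called FOG2, which is needed for coronary vessels and binds GATA4, was at 2.75 and 1.63 RPKM (p = 0.151 in the authors' deposited table). Zfpm1 lies inside the span that the table gives for Galnt2 on the same strand, so part of its reads could belong to that row.

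T-box factors bind a shared DNA site and either activate or repress chamber genes. Tbx20 (chromosome 9, 24527648 to 24578746), which maintains adult cardiomyocytes and acts in the endocardium, was listed at 5.62 RPKM in controls and 14.4 in mutants. In the authors' deposited table the fold was 2.56, with p = 0.0067 and adjusted p = 0.123, and the implied interval on the log2 scale was 0.38 to 2.34. The interval lay above 0, but the gene was not called. Tbx5, an activator of chamber and conduction genes that binds with GATA4 and NKX2-5, was at 2.29 and 1.07 RPKM, with a log2 fold change of -1.09, p = 0.0462 and adjusted p = 0.382 in the authors' deposited table. Tbx3, a repressor that sets the identity of the conduction system, was at 2.36 and 1.20 RPKM, with a log2 fold change of -0.98, p = 0.0546 and adjusted p = 0.413 in the authors' deposited table. Tbx2, a repressor of the atrioventricular canal, was at 3.91 and 3.65 RPKM (p = 0.805 in the authors' deposited table). Tbx20 gave 39.6% of the summed T-box level in control and 70.9% in mutant.

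Tbx3 and Tbx5 are neighbours on chromosome 5, from 120120678 to 120134733 and from 120284672 to 120335227 (mm9), with 150 kb between them. Both were listed at close to the same fold, 0.507 and 0.470 in the authors' deposited table, and neither was called. Gm2301, which overlaps the start of Tbx3 on the other strand, was listed at 0.461 RPKM in controls and 0.0977 in mutants (p = 0.0127, adjusted p = 0.181 in the authors' deposited table).

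HAND factors are basic helix-loop-helix proteins with roles in the right and left ventricle of the embryo. Hand2 was listed at 11.6 RPKM in controls and 15.2 in mutants (log2 fold change 0.39, p = 0.409 in the authors' deposited table). Hand1 was listed at 0 in control and at 0.0376 RPKM in mutant, about 10 reads by the estimate from exon lengths. Hand2 thus supplied 99.8% of the summed HAND level in mutant.

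MEF2 factors carry a MADS domain, switch on muscle structural genes and are held in check by class IIa histone deacetylases. Mef2a (chromosome 7, 74376049 to 74517744), the main form of the heart after birth, was listed at 26.0 RPKM in controls and 12.6 in mutants. In the authors' deposited table its log2 fold change was -1.05, with p = 0.0697 and adjusted p = 0.468, and the implied interval ran from -2.18 to 0.08. Mef2c, which drives the early heart tube, was at 8.52 and 5.72 RPKM (p = 0.266 in the authors' deposited table), and Mef2d, a mediator of stress-dependent remodelling, at 14.0 and 12.1 RPKM (p = 0.694). The summed MEF2 level was 48.6 RPKM in control against 30.9 RPKM in mutant. Mef2a made up 53.5% of that sum in control and 40.8% in mutant, where Mef2d came close to it at 39.2%.

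Mef2b was the MEF2 gene listed higher, at 0.0981 RPKM in controls and 0.431 in mutants. In the authors' deposited table its fold was 4.39, with p = 0.0378 and adjusted p = 0.347. By the estimate from exon lengths this rests on about 7 reads in control. It overlaps 2310045N01Rik on the same strand (chromosome 8, 72663398 to 72691387), which was listed at 1.33 and 2.0 RPKM without a call, so reads of these rows could be shared.

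**Figure D3:**
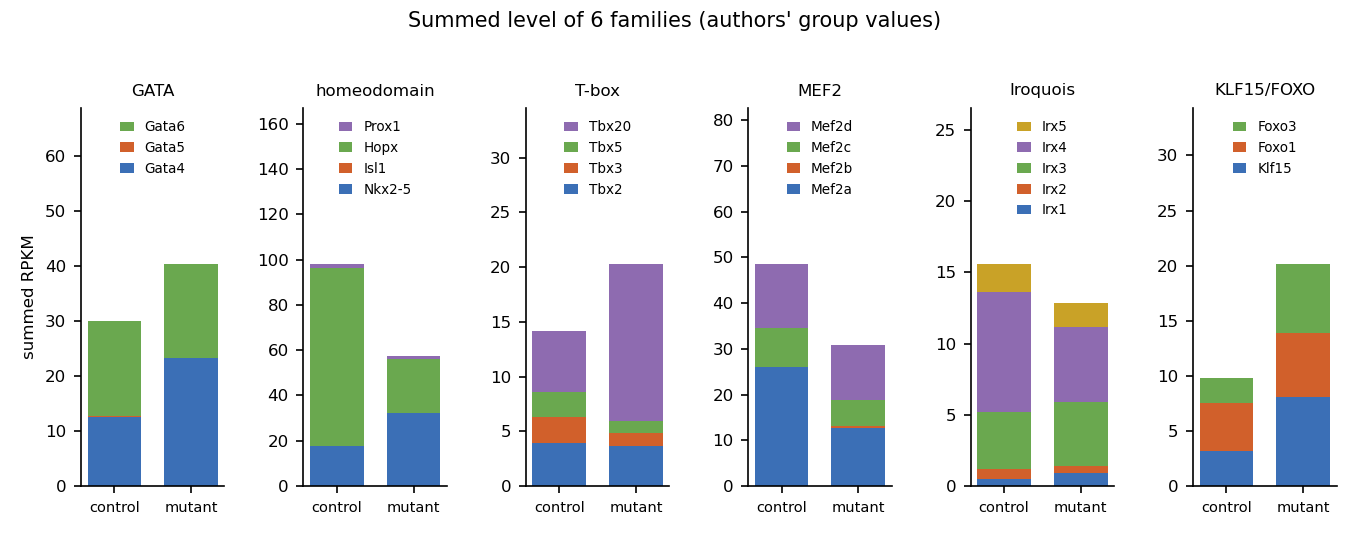
Summed level of 6 families in control and mutant ventricles, as stacked bars of the authors' group values in RPKM, each panel with its own axis from 0. The homeodomain sum went from 98.2 to 57.4 RPKM with the fall of Hopx, the MEF2 sum from 48.6 to 30.9 RPKM, and the sum of Klf15, Foxo1 and Foxo3 from 9.81 to 20.2 RPKM.

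Iroquois factors set regional identity in the ventricle, and they sit in a pair of genomic clusters. In the chromosome 13 cluster, Irx4, the ventricular member that represses atrial genes, was listed at 8.42 RPKM in controls and 5.27 in mutants (p = 0.187 in the authors' deposited table). Its neighbours Irx1 and Irx2, known from the ventricular septum, were at 0.499 and 0.930 RPKM and at 0.729 and 0.485 RPKM (p = 0.221 and 0.372 in the authors' deposited table). In the chromosome 8 cluster, Irx3, which acts in the fast conduction system, was at 3.96 and 4.48 RPKM, and Irx5 at 2.01 and 1.71 RPKM (p = 0.748 and 0.693 in the authors' deposited table). Each cluster held genes listed in both directions: Irx1 and Irx3 were listed higher and Irx2, Irx4 and Irx5 lower, all without a call.

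Irx5 is known as a repressor of Kcnd2, the potassium channel gene that forms a gradient across the ventricular wall. Kcnd2 fell from 2.14 to 0.0633 RPKM, with an adjusted p of 1.02e-11 in the authors' deposited table. The fold of Irx5 was 0.851, with an implied 95% interval of -1.40 to 0.93 on the log2 scale. The part of Irx5 in the level of Kcnd2 was not tested.

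None of the remaining regulators of chamber identity was called, and they were listed from lower, for Nr2f1 and Meis1, to near the control value, for Nr2f2. Meis1, a homeodomain factor of cell cycle arrest in cardiomyocytes after birth, was at 1.99 RPKM in controls and 1.39 in mutants, and Meis2 at 1.25 and 1.10 RPKM (p = 0.339 and 0.721 in the authors' deposited table). Nr2f1 and Nr2f2, the COUP-TF nuclear receptors of atrial and venous identity, were at 1.34 and 0.755 RPKM and at 2.67 and 2.82 RPKM (p = 0.130 and 0.926 in the authors' deposited table). The log2 fold change of Nr2f1 was -0.83 in the authors' deposited table, with an implied 95% interval of -1.90 to 0.24. The direction of Nr2f2 flipped when log2 fold changes were centred on the median of rows of at least 1 RPKM, from 0.08 to -0.01.

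TEAD factors are the DNA-binding partners of the Hippo pathway effectors YAP and TAZ. Tead1, the main form of the heart, had 2 rows in the authors' deposited table. Its processed transcript row, at the 3' end of the gene, was at 15.1 RPKM in controls and 13.8 in mutants, and its protein coding row at 6.83 and 6.95 RPKM (p = 0.811 and 0.950 in the authors' deposited table). The row of higher level was used for Tead1, and the sign of the difference depended on the row. Tead4 was at 0.449 and 0.482 RPKM.

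Klf15, Foxo1 and Foxo3 tie the cardiac program to metabolism and atrophy, and all were listed higher in mutant. Klf15 (chromosome 6, 90412570 to 90425232) codes for a zinc finger factor that drives lipid and amino acid use and restrains hypertrophy. It was listed at 3.16 RPKM in controls and 8.09 in mutants, with a fold of 2.56, p = 0.00877 and adjusted p = 0.146 in the authors' deposited table. Foxo3 (chromosome 10, 41901647 to 41996561), a forkhead factor that induces autophagy and atrophy genes, was at 2.25 and 6.30 RPKM. Its fold of 2.80, p = 0.00326 and adjusted p = 0.0758 in the authors' deposited table were the lowest p-values of any member after Hopx. The implied intervals were 0.34 to 2.38 for Klf15 and 0.49 to 2.47 for Foxo3 on the log2 scale, so both lay above 0 without a call. With the adjustment over rows of at least 1 RPKM alone, the adjusted p was 0.0513 for Foxo3, 0.0852 for Tbx20 and 0.102 for Klf15. Foxo1 was at 4.40 and 5.79 RPKM (p = 0.443 in the authors' deposited table).

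**Figure D4:**
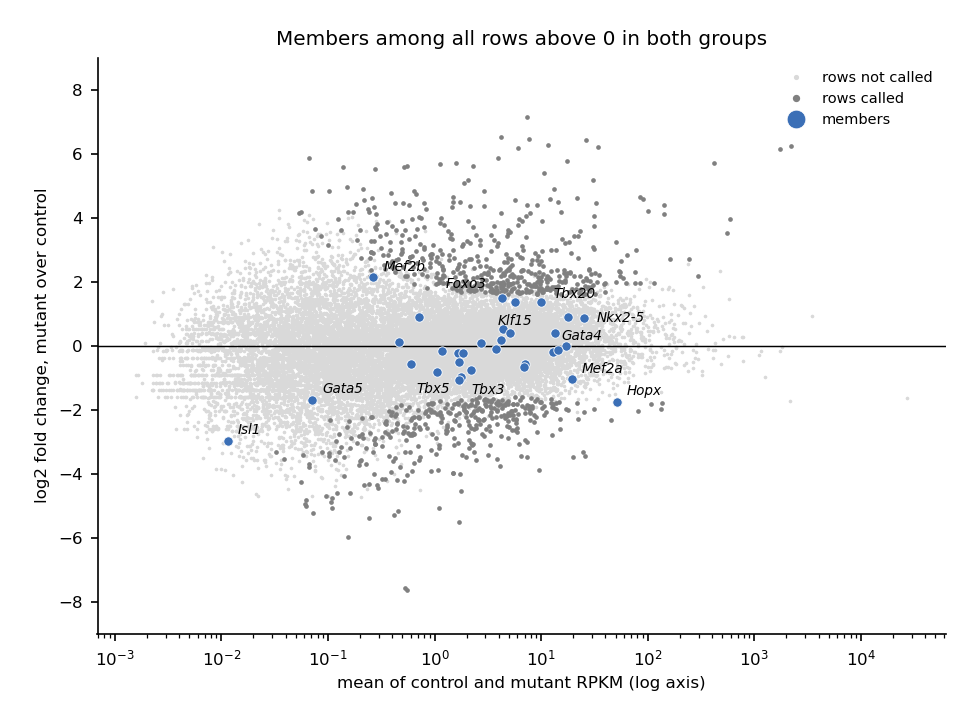
Log2 fold change against the mean level for the 20922 rows above 0 in both groups, with called rows in dark grey and the members in blue; both values are from the authors' deposited table and the level axis is logarithmic. Hopx lies at the lower edge among called rows, while the other members fall within the cloud of rows that were not called.

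Of 31 tested paralogs from the same families 1 rose and none fell, against 2.03% of all tested rows called higher and 1.48% lower, and the median log2 fold change was 0.20 over the 30 above 0 in both groups, against -0.03 over all 20922 such rows. The called one was Tbx15, a T-box factor of mesenchyme, which rose from 0.0389 to 0.512 RPKM with adjusted p = 0.00239 in the authors' deposited table. The most abundant paralogs were Klf9 and Klf2, at 30.4 and 21.8 RPKM in controls, and at 36.3 and 15.9 in mutants. Of 28 cofactors and partners 1 rose and none fell, with a median of -0.07. It was Vgll3, a TEAD-binding cofactor of the vestigial-like family, from 0.380 to 3.25 RPKM with adjusted p = 2.23e-05 in the authors' deposited table. Smyd1, a muscle methyltransferase downstream of MEF2C, was listed at 45.9 and 48.7 RPKM, and Lbh, a cofactor of limb and heart development, at 43.8 and 102 RPKM, neither with a call.

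Known targets of the core factors split into a few genes that rose and many without a call. Of 34 cardiac muscle targets of GATA4, NKX2-5, TBX5 and MEF2 proteins 5 rose and none fell, with a median log2 fold change of -0.06. The genes that rose were Acta1, skeletal actin, from 15.9 to 827 RPKM, Nppa and Nppb, the natriuretic peptides, from 58.2 to 4370 RPKM and from 72.4 to 1120 RPKM, Ankrd1, a titin-bound stress protein, from 89.1 to 1020 RPKM, and Xirp1, an actin-binding protein, from 11.1 to 40.0 RPKM. Contractile genes of the list were listed in both directions without a call. Actc1, cardiac actin, was at 2380 RPKM in controls and 4530 in mutants, and Myh6, the adult myosin heavy chain, at 1660 and 840 RPKM. Tnnt2 and Myl2, a troponin and the ventricular light chain, were at 1840 and 1230 RPKM in controls, and at 1640 and 997 in mutants. Des, the muscle intermediate filament desmin, was at 69.5 and 404 RPKM (p = 0.00747, adjusted p = 0.132 in the authors' deposited table), and Ryr2, the calcium release channel, at 52.2 and 16.3 RPKM (p = 0.0461, adjusted p = 0.382 in the authors' deposited table). The share called was 14.7%, against 5.28% of rows of at least 1 RPKM.

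Targets of TEAD, FOXO and KLF15 proteins are set beside these factors here. Of 14 known targets of YAP and TEAD proteins 5 rose and none fell (median 0.90): Ctgf and Cyr61, matricellular proteins, from 15.5 to 269 RPKM and from 9.17 to 47.1 RPKM, Tgfb2 from 2.18 to 10.9 RPKM, Amot, a binding partner of YAP, from 0.444 to 2.0 RPKM, and Ankrd1 again. The fold of Tead1 itself was 0.915 in the authors' deposited table. Of 22 FOXO targets, which include Klf15 itself, 3 rose and none fell (median 0.55): Cdkn1a, the cell cycle inhibitor p21, from 10.4 to 192 RPKM, the autophagy gene Gabarapl1 from 5.72 to 27.4 RPKM, and the mitophagy receptor Bnip3 from 5.34 to 24.1 RPKM. Fbxo32 and Trim63, the muscle ubiquitin ligases among them, were listed at 4.69 and 20.2 RPKM in controls, and at 6.22 and 27.8 in mutants without a call. Of 12 KLF15 targets none rose and 1 fell (median -0.46), Kcnip2, a subunit of the transient outward potassium channel, from 12.6 to 1.61 RPKM with adjusted p = 8.15e-06 in the authors' deposited table. Kcnip2 is known to be activated by KLF15, and the 2 were listed in opposite directions. The share called was 35.7% of the TEAD targets, 13.6% of the FOXO targets and 8.33% of the KLF15 targets, against 5.28% of rows of at least 1 RPKM. These genes have many other regulators, and the part of the listed factors in their levels was not tested.

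Cell type markers were read beside the factors, because several members are expressed in more than 1 of them. In bulk tissue fewer cells of a type and less RNA per cell cannot be told apart. The 12 cardiomyocyte markers gave 0 calls, with 1 at an unadjusted p below 0.05, Ryr2, which was listed lower. Of these markers 9 were listed lower and 3 higher, with a median log2 fold change of -0.31. They summed to 10784 RPKM in control against 11274 RPKM in mutant, of which Actc1 gave 2380 and 4530 RPKM. The most abundant of these markers were measured coarsely. In the authors' deposited table the fold was 1.90 for Actc1 with p = 0.718, and 0.505 for Myh6 with p = 0.76. The 0 calls therefore do not show that cardiomyocyte markers kept their level. The 14 fibroblast markers, of a cell type that expresses Gata4, Tbx20, Tbx5 and Hand2, also gave 0 calls, and summed to 837 and 1148 RPKM. An unadjusted p below 0.05 was found for 5 of them, 4 listed higher and 1 lower. In the whole fibroblast list 8 were listed higher and 6 lower, with a median log2 fold change of 0.47. Of 15 endothelial and endocardial markers 2 rose, Vwf and Npr3, from 1.54 to 7.79 RPKM and from 1.03 to 3.99 RPKM, and the list summed to 588 and 523 RPKM. Most of that list went the other way, with 9 listed lower and 6 higher and a median log2 fold change of -0.33. Of 15 macrophage markers 2 rose, Lyz2 and Lgals3, with sums of 86.3 and 240.5 RPKM. In the macrophage list 13 were listed higher and 2 lower, with a median log2 fold change of 0.99. Of 12 mural cell markers 1 rose, Tagln, with sums of 395 and 1377 RPKM and a median log2 fold change of 0.10. Most of the mural sum came from Acta2, at 158 and 802 RPKM, and Des, which is also a muscle gene, and neither was called. The pericyte markers Pdgfrb and Rgs5 were at 14.2 and 14.4 RPKM and at 76.6 and 57.9 RPKM. The share called was 13.3% of the endothelial, 13.3% of the macrophage and 8.33% of the mural markers, against 5.28% of rows of at least 1 RPKM. None of these markers was listed at 0 in either group. Their part in the values of the members was not tested.

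The tissue label was checked in the same way. Myl2, the ventricular light chain, was listed at 1230 RPKM in controls and 997 in mutants, against 27.9 and 17.7 RPKM for Myl7, its atrial counterpart, and Bmp10, a growth factor of the atria after birth, was at 0.0457 RPKM in control and listed at 0 in mutant. Of 12 atrial markers 3 rose (Nppa, Dkk3 and Clu) and 2 fell (Kcnj3 and Kcnj5), and Nppa gave 58.2 of their summed 141.6 RPKM in control and 4370 of 4518 RPKM in mutant. Of 11 ventricular markers 3 fell, Kcnd2, Kcnj2 and Mpped2, and none rose, with sums of 3257 and 2758 RPKM. Of 14 genes of the sinus node and conduction system, of which 6 had a mean of at least 1 RPKM, Kcne1 and Scn10a fell. Scn10a was at a low level, 0.335 RPKM in controls and 0.0404 in mutants. Kcne1 gave 27.4 of the summed 51.6 RPKM in control and 6.93 of 27.9 RPKM in mutant, so most of the difference between the sums was Kcne1. The members Tbx3, Tbx5, Irx3 and Isl1 act in that tissue, and their part in these values was not tested. Of 12 epicardial markers, of which 4 had a mean of at least 1 RPKM, 3 rose, all keratins. They were Krt18 from 0.838 to 17.6 RPKM, Krt8 from 0.0523 to 1.09 RPKM and Krt19 from 0.212 to 1.34 RPKM. Wt1, the defining factor of the epicardium, was at 1.64 and 0.998 RPKM without a call. Aldh1a2, the most abundant epicardial marker in control, was at 8.36 and 4.07 RPKM, also without a call. In the atrial list 6 genes were listed higher and 6 lower, and in the ventricular list 2 higher and 9 lower. These counts were 3 and 11 in the conduction list and 9 and 3 in the epicardial list. Of 11 tested skeletal muscle markers 1 fell, Tnni2, from 1.03 to 0.0633 RPKM, and Myod1, Myog and Myf6 were listed at 0 in both groups. The share called was 41.7% of the atrial, 27.3% of the ventricular and 14.3% of the conduction genes. It was 25.0% of the epicardial and 9.09% of the tested skeletal muscle markers. Among all tested rows it was 3.51%, and among rows of at least 1 RPKM 5.28%.

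**Figure D5:**
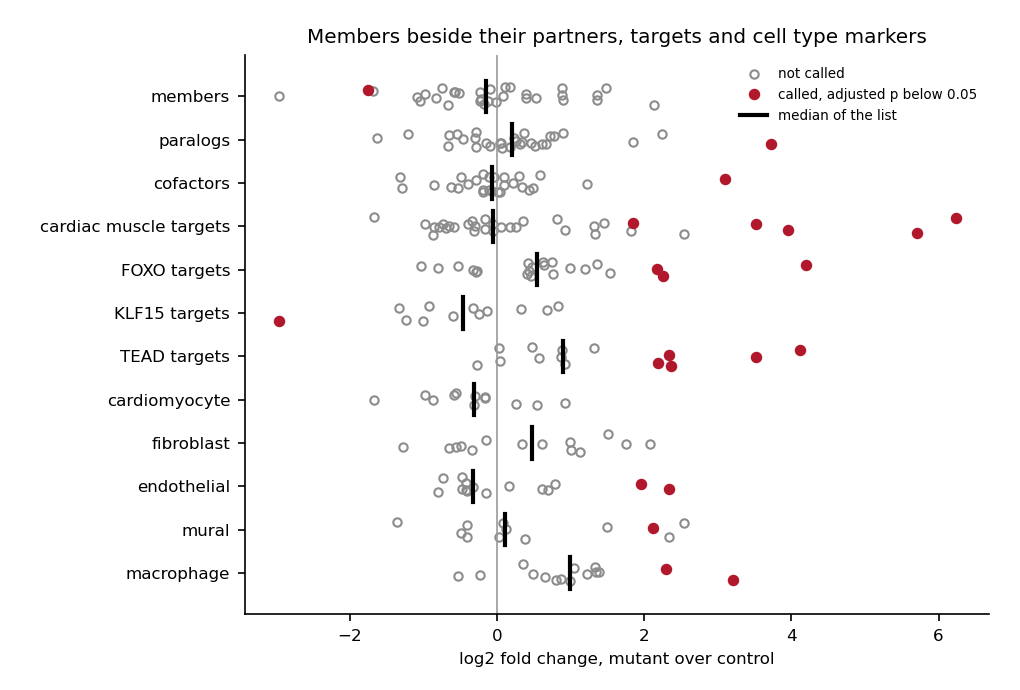
Log2 fold change of mutant over control in the authors' deposited table for the members, their paralogs, cofactors and known targets, and markers of 5 cell types; each circle is a gene above 0 in both groups, red where called, and black bars are medians. The members lie around a median of -0.15, and the calls among TEAD, FOXO and cardiac muscle targets all lie on the higher side.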

How the data were processed

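Gene values for ventricles of 2 control and 2 mutant mice came from 1 table. Per the file headers, the authors deposited 1 RPKM value per group, a mutant to control ratio (fold), the log2 of that ratio, and p-values before and after adjustment. Bowtie 0.12.9, DESeq and build mm9 are named in the submitters' processing notes, without roles; how reads were counted, on which annotation and with or without strand is not given in the sources used here. The authors' test was the main result, since replicates could not be fitted. With nothing said of littermates, p-values speak for these samples only. How the authors' test estimated the spread of each gene is not given. An implied error therefore need not be the gene's own spread between animals. Of 36814 rows, 24454 carried a test; the Benjamini-Hochberg adjustment recomputed from the deposited p-values differed by at most 0.593%. Implied errors are the size of the log2 fold change divided by the normal score of its p-value, computed with Python 3.11.15 and scipy 1.17.1. They were run on data simulated with normal errors, which checks the arithmetic only. Whether the intervals hold for p-values of the authors' test was not tested. Members, gene lists, motifs and tests were chosen with earlier results of these data known. Genes were named by this rule: members with a mean of at least 1 RPKM or an unadjusted p below 0.05 in full, and from each list the called genes (at most 6), otherwise the 2 most abundant. Other genes named, such as Kcnd2 beside Irx5, were chosen after their values were seen. The alternatives were unadjusted p, adjustment over rows of at least 1 RPKM, a 2-fold rule, pseudocounts of 0.1 and 1, centring, and the first row of a symbol.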

Additional observations from a re-analysis of the deposited data

How the results depend on the processing

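No paired analysis was possible because the deposited table gives 1 value per group, and for the same reason no replicate could be left out. Hopx was called with the deposited adjustment, with adjustment over rows of at least 1 RPKM and among members of that level; the count of called members was 1 in each, but 6 by unadjusted p and 10 by a 2-fold rule with no test. The median log2 fold change of the members stayed between -0.24 and -0.01 under pseudocounts, filters and centring. By unadjusted p the count was 4 paralogs, 3 cofactors, 8 cardiac muscle targets, 6 FOXO targets, 3 KLF15 targets and 6 TEAD targets. Among marker lists that count was 7 atrial genes, 4 conduction genes, 4 epicardial markers, 1 cardiomyocyte marker, and 5 each of fibroblast, mural and macrophage markers. Adjustment over rows of at least 1 RPKM leaves out rows below that level. The count was then 0 paralogs, 4 FOXO targets, 1 conduction gene, 2 fibroblast markers, 1 epicardial marker and 0 skeletal muscle markers. With a pseudocount of 1, the log2 fold changes of Gata5, Isl1 and Mef2b shrank to -0.10, -0.03 and 0.38. Members below 1 RPKM, 7 in all, are limited by depth.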

Other observations

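Noncoding rows that overlap a member on the other strand were mostly listed lower in mutant. Of 9 lincRNA and processed transcript rows above 0 in both groups, 8 were listed lower, with a median log2 fold change of -1.11, and none was called, though 3 had an unadjusted p below 0.05 in the authors' deposited table (Gm15830 at Hopx, Gm2301 at Tbx3 and 1010001N08Rik at Gata6). Gm8327 and A830082K12Rik, both at Nr2f1, overlap each other, so the 9 rows are not all separate. Among 810 such rows opposite to any protein coding row of at least 1 RPKM, 59.3% were listed lower and the median was -0.27. Of those 810 rows, 107 had an unadjusted p below 0.05 and 19 were called. Among all 1812 noncoding rows of these types, 62.5% were listed lower and the median was -0.37. Of those 1812 rows, 204 had an unadjusted p below 0.05 and 43 were called. 1010001N08Rik was at 1.32 RPKM in controls and 0.458 in mutants, while Gata6 was at 17.3 and 17.2 RPKM. 1700113A16Rik, opposite to Mef2d, was at 10.8 and 5.55 RPKM, against 14.0 and 12.1 RPKM for Mef2d. The pattern was noticed in these data and was not tested.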
